A study of Mus musculus with 8 samples.

Results

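DNA damage and repair genes encode the proteins that detect broken or altered DNA, signal its presence and restore the sequence. The set held 43 listed genes among 21887 protein-coding genes of the mouse annotation, and all 43 were found in it. Members were chosen by name with measured values of these peak lists known. Parp2, Rad1, Palb2, Rad23b and Sesn2 stood out in an earlier reading by their fold over background or by a peak listed in some conditions only, so their folds and their presence or absence are given as a description and support nothing. The readout per gene was any peak within 1 kb of an annotated gene end, called a gene-end peak here, and the peaks within 50 kb of the gene body.

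The data were ATAC-seq of cortical neurons grown from mouse embryos at E16.5, an embryonic stage before birth. ATAC-seq uses the Tn5 transposase to cut and tag open chromatin. The 4 conditions were Brg1-cko neurons (BAF53bCre Brg1F/F, written cKO) given 50 mM KCl for 1 h, cKO neurons with no KCl (basal), wild-type (WT) neurons given 50 mM KCl for 1 h, and basal WT neurons. Each condition had 2 libraries of 50000 cells, and 1 pooled list of nucleosome-free peaks per condition was used. TTX at 1 µM and APV at 100 µM preceded KCl by a day, on day 5 in vitro, and the labels do not say whether basal cultures received them or whether WT cultures carried Cre. BAF53b is a subunit gene of the neuronal Brg1-containing remodelling complex, so the Cre acts in neurons, and other cells in the culture would keep Brg1. KCl depolarises neurons and lets calcium in. Brg1, encoded by Smarca4, is an ATPase that moves nucleosomes.

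Neurons do not divide, and they meet oxidised bases, single-strand breaks and, at active genes, double-strand breaks. Oxidised bases are removed by base excision, and the resulting nicks are bound by poly(ADP-ribose) polymerases and sealed by ligases. Bulky lesions are cut out by nucleotide excision, while double-strand breaks are rejoined by end joining or, in dividing cells, copied from a sister chromatid by homologous recombination. The ATM and ATR kinases report breaks and exposed single strands to the checkpoint.

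The lists held 25690 peaks in cKO KCl, 20484 in cKO basal, 20229 in WT KCl and 34061 in WT basal. The fold and p-value of each peak gave back the number of fragments stacked at its summit, with a median of 31 in cKO KCl, 33 in cKO basal, 30 in WT KCl and 32 in WT basal. The background floor lay between 8.23 and 9.47 fragments, and the fewest fragments that made a peak over the floor were 20 to 22. Smarca4 had a gene-end peak in all 4 lists, with a fold of 5.62 in cKO KCl, 5.21 in cKO basal, 5.32 in WT KCl and 4.89 in WT basal; a peak at its ends does not report the deletion. Of 10 neuronal markers, a gene-end peak marked 5 in cKO KCl, 5 in cKO basal, 5 in WT KCl and 6 in WT basal, and Rbfox3, Neurod2 and Slc17a7 had none in any list. None of 4 microglial markers had one in any list, and 3 of 4 astrocyte markers had one in WT basal only, against 0 in each of the other 3 lists. Other markers of non-neuronal cells were listed. The oligodendrocyte lineage marker Olig2 had a fold of 3.7 in cKO KCl, 3.11 in cKO basal, 2.69 in WT KCl and 3.14 in WT basal, and the vascular marker Flt1 had 2.76 in cKO KCl, 2.83 in cKO basal, 2.39 in WT KCl and 2.76 in WT basal. A peak was listed for the oligodendrocyte gene Mbp in cKO basal and WT basal, and for the vascular gene Pdgfrb in cKO KCl. The other oligodendrocyte markers, Mog and Sox10, and the other vascular markers, Pecam1 and Cldn5, had no gene-end peak in any list. These counts stand beside a share of 38.8% to 46.5% of all genes with a gene-end peak, and the make-up of the cultures was not tested. Peaks carry no RNA level, and the part of other cells in the results below was not tested. With 1 list per condition there is no replicate spread, so no difference between conditions was tested.

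The promoters of 5 of the members described in full are shown first, each as the 250 bases before its annotated start in RefSeq (GRCm38.p6), read 5′ to 3′ on the gene's own strand. Rad1 has another annotated start, at 10486038, whose window is not printed. Parp2 (chr14:50807666-50807915, plus strand), Rad1 (chr15:10485768-10486017, plus strand) and Palb2 (chr7:122132947-122133196, minus strand) had a peak in 3 of 4 lists. Atm (chr9:53536672-53536921, minus strand) and Xrcc4 (chr13:90089609-90089858, minus strand) had the highest median ranks by fold over the lists, among members with a peak in all 4. Capitals mark matches, on either strand, to CCAAT (NF-Y), CCGGAAG (ETS), GGGCGG (Sp and Klf) and CACGTG (E-box); no other motif searched matched in the printed bases.
Parp2: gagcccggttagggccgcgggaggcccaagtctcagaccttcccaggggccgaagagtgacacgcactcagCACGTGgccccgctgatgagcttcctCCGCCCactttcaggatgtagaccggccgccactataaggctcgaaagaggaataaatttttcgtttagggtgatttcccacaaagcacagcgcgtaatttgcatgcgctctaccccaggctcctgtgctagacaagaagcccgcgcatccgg
Rad1: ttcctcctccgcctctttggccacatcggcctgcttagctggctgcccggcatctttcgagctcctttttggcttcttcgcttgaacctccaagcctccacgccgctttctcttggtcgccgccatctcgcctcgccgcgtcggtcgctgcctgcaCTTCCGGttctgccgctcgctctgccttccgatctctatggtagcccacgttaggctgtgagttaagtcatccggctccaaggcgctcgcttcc
Palb2: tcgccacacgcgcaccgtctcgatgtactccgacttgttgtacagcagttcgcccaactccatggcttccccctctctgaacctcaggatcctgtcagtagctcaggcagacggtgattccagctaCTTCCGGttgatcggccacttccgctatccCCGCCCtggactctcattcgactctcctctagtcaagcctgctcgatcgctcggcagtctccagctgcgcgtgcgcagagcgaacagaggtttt
Atm: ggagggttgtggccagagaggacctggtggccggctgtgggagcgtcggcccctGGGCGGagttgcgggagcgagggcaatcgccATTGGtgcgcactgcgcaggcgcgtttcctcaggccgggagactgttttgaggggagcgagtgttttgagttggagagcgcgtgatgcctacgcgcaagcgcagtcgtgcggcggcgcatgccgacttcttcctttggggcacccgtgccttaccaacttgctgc
Xrcc4: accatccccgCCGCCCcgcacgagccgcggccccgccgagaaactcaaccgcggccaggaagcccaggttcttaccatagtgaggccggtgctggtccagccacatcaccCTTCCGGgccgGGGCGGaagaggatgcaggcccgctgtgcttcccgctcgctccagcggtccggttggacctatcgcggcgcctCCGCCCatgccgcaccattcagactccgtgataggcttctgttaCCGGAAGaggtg

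A gene-end peak was more common among the repair genes than among all genes in every list. It was present for 35 of 43 members in cKO KCl (81.4%, against 45.2% of all protein-coding genes), 31 in cKO basal (72.1% against 38.8%), 32 in WT KCl (74.4% against 39.8%) and 36 in WT basal (83.7% against 46.5%). In all 4 lists it was present for 26 members (60.5%), against 29.0% of all genes. It was absent from every list for 3 members (6.98%), against 43.1% of all genes. The other 14 had it in 1 to 3 lists, of which 5 in 3 lists, 6 in 2 lists and 3 in 1 list. The members were picked with such values in view, so the excess is a description.

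**Figure D1:**
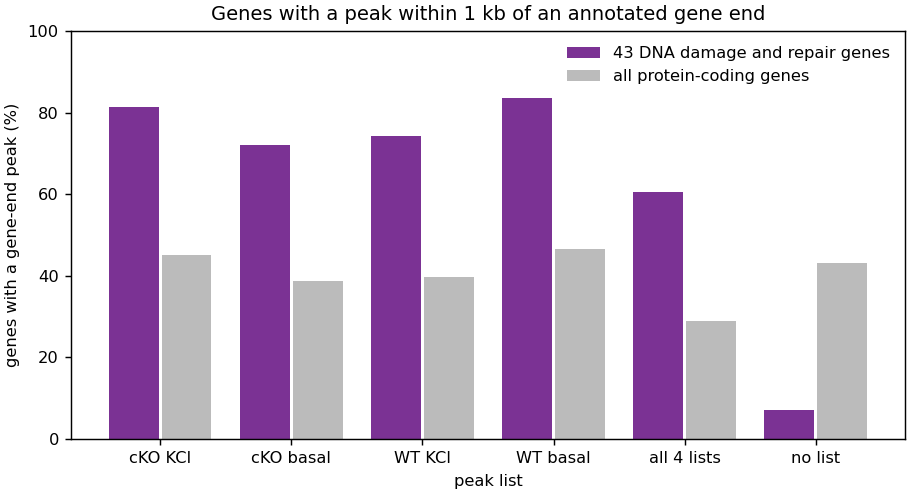
Share of genes (percent, bars from 0) with a peak within 1 kb of an annotated gene end, per peak list, in all 4 lists and in none. The bars of the 43 repair genes stand above those of all protein-coding genes in each list, with 81.4% against 45.2% in cKO KCl and 83.7% against 46.5% in WT basal.

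The same held at transcript starts, which RefSeq gives for 36 of the members. All 36 had a peak within 1 kb of an annotated start in at least 1 list, against 58.1% of 17492 genes with such a start, and 27 had one in all 4 lists (75.0% against 31.5%). The 4 members that gained lists at the start were Xrcc6, Lig4, Lig1 and Trp53bp1, whose gene models extend beyond the start that the peak marks. Places by fold were also compared among the 7197 regions common to all lists. Of the 23 members in all 4 lists with 1 common gene-end region, 5 stayed within 10 percentage points and 10 moved by over 30. How often other common regions moved as far is not given here, so these shifts, and those of single members below, are a description. For the 21 members with an annotated start whose strongest gene-end peak was 1 region in all 4 lists, the median summit lay 39 bp before the start (-39.0 bp), with a median spread of 104 bp between lists, against -48.0 bp and 97.0 bp over 4805 genes. Of these members Rad23b varied least in the plot of summits, at -289 bp in cKO KCl and -286 bp in the other 3 lists.

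**Figure D2:**
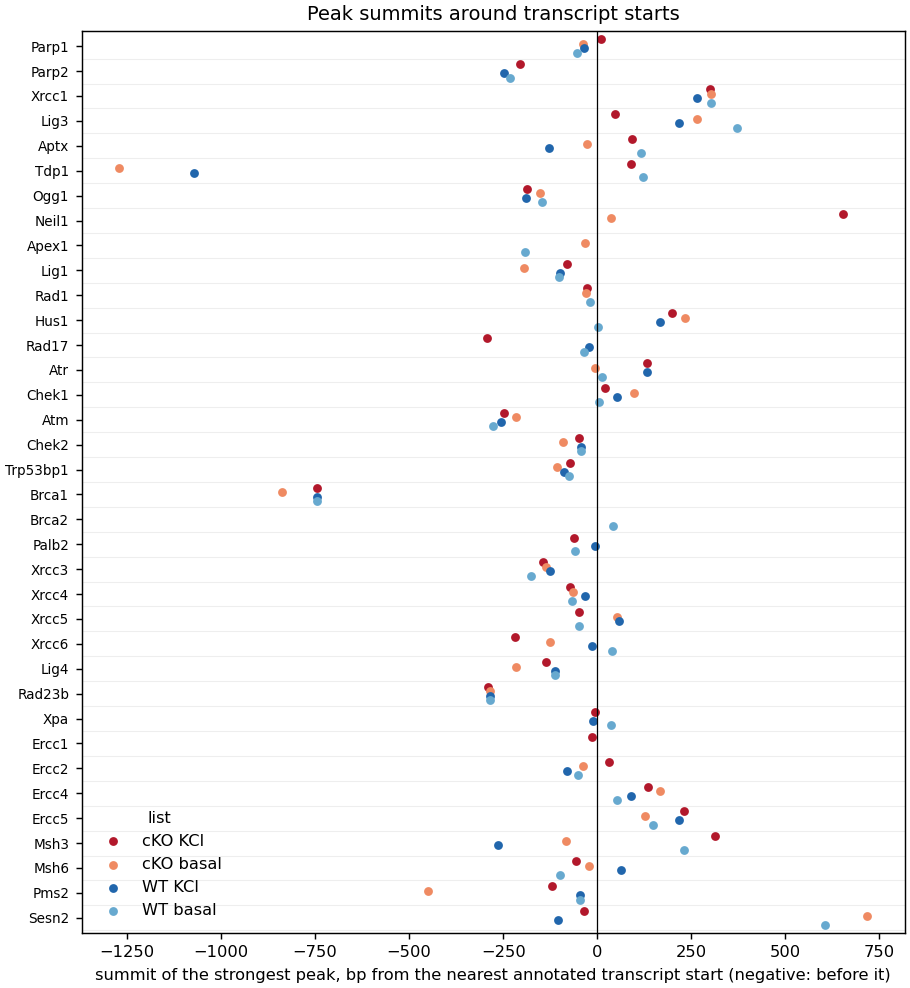
Position of the strongest start peak's summit (bp from the nearest annotated start, negative before it) for each member and list, 1 point per list. Most points lie within 250 bp of the start, Brca1 sits between -838 and -744 bp, and Rad23b's 4 points coincide near -286 bp.

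Among genes with a gene-end peak, the members' strongest peak was among the 10% of highest fold for 14 of 35 in cKO KCl (40.0%, against 24.1% of genes with such a peak), 8 of 31 in cKO basal (25.8% against 22.4%), 12 of 32 in WT KCl (37.5% against 22.8%) and 14 of 36 in WT basal (38.9% against 30.2%). The cKO basal share lay near the background. Ranked by summed fold among genes, the counts came to 4 in cKO KCl (11.4%, against 10.0% of genes with a gene-end peak), 3 in cKO basal (9.68% against 9.99%), 2 in WT KCl (6.25% against 10.0%) and 7 in WT basal (19.4% against 10.0%). Among the regions common to all lists, they came to 4 of 26 in cKO KCl (15.4% against 11.4%), 2 in cKO basal (7.69% against 11.4%), 6 in WT KCl (23.1% against 11.3%) and 4 in WT basal (15.4% against 12.1%). The lists in which members exceeded the background thus differed between rankings. Over the 26 members present in all lists, the fold ran from 3.1 to 8.66 in cKO KCl (median 4.62), 2.58 to 6.59 in cKO basal (median 3.54), 2.71 to 5.83 in WT KCl (median 3.88) and 2.82 to 8.06 in WT basal (median 4.08). A fold is the authors' value, ranks peaks within its own list, and carries the list's background with it.

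**Figure D3:**
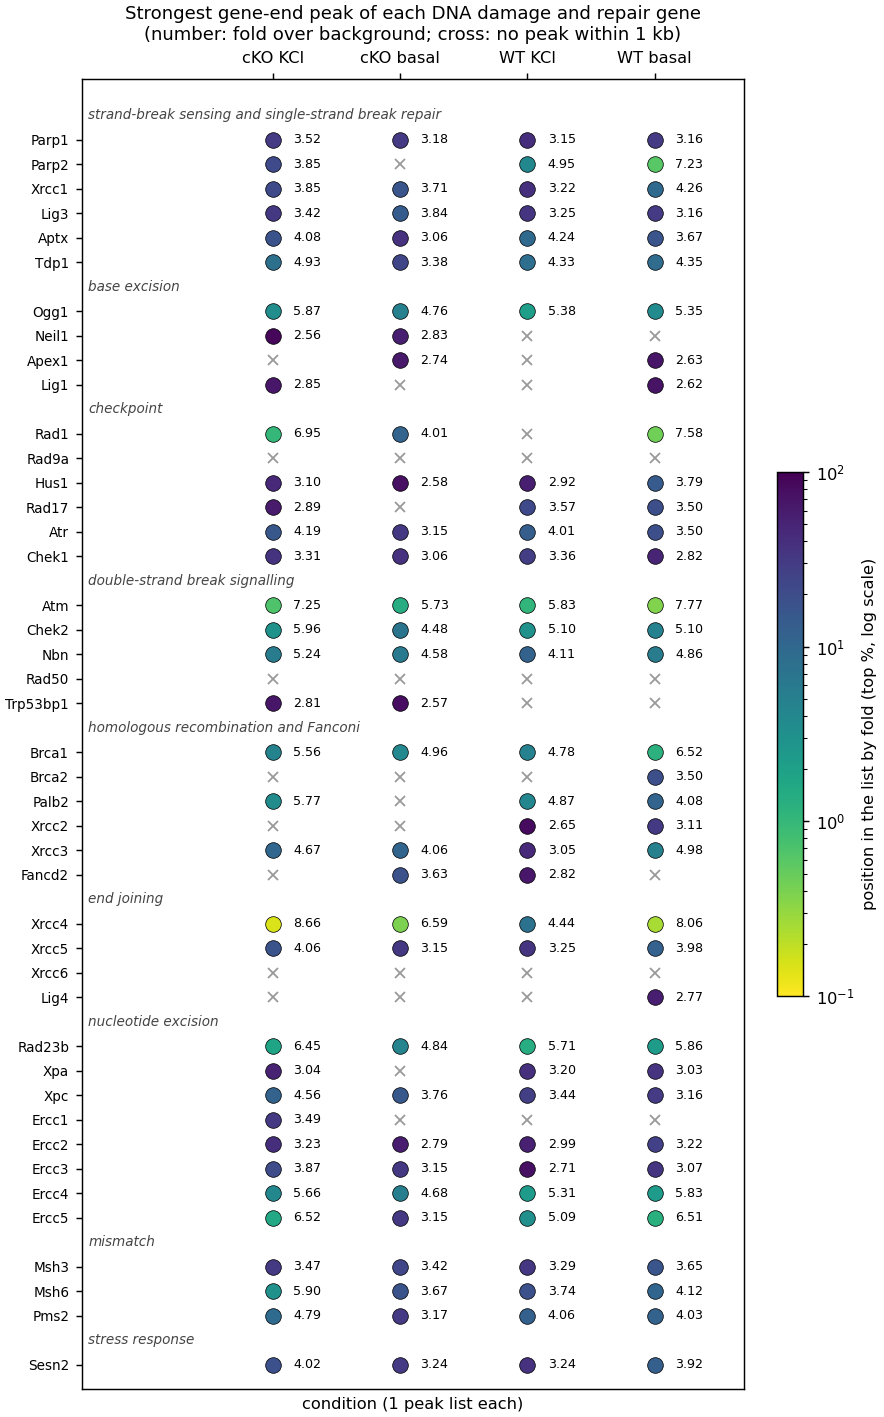
Strongest gene-end peak of each of the 43 members by role (rows) in each list (columns). The printed number is the authors' fold over background, the colour is the peak's position in its list by fold (top percent, log scale), and a cross marks no peak within 1 kb. Crosses fill whole rows for Rad50, Rad9a and Xrcc6, and Xrcc4, Atm, Rad1 and Parp2 hold the brightest points.

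Strand-break sensors and single-strand break repair held 6 members, of which 5 had a gene-end peak in all 4 lists, against 29.0% of all genes. Parp2, a polymerase that binds nicks and builds poly(ADP-ribose) chains, was the exception. Its peak, at chromosome 14, 50807497 to 50808041 in WT basal, had a fold of 3.85 on 35 fragments in cKO KCl, 4.95 on 47 in WT KCl and 7.23 on 74 in WT basal, rank 206 of 34061. No peak was listed in cKO basal, where the nearest one to a gene end was 15406 bp away. The RNA gene Rpph1 has an end within 1 kb of the same peak, so the open site cannot be given to Parp2 alone. Parp1, its larger relative, had a fold of 3.52 in cKO KCl, 3.18 in cKO basal, 3.15 in WT KCl and 3.16 in WT basal, which placed it in the lower part of the common regions, between the top 66.8% and 80.9%. Xrcc1, the scaffold that recruits ligase to nicks, had 3.85 in cKO KCl, 3.71 in cKO basal, 3.22 in WT KCl and 4.26 in WT basal. Tdp1, which removes topoisomerase remnants from DNA ends, had 4.93 in cKO KCl, 3.38 in cKO basal, 4.33 in WT KCl and 4.35 in WT basal. The strongest peak of Tdp1 in cKO basal and in WT KCl lay nearer the start of Efcab11. That region and the one at the Tdp1 start both had a peak in all 4 lists. Aptx, which clears failed ligations, had gene-end peaks about 19 kb from its own annotated starts, next to Dnaja1. At those starts it had a separate peak in all 4 lists. The fold there was 3.76 in cKO KCl, 2.83 in cKO basal, 3.23 in WT KCl and 2.44 in WT basal. Lig3, the ligase that works with Xrcc1, stayed between 3.16 and 3.84.

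Of 4 base excision members, 1 had a gene-end peak in all 4 lists, a share near the 29.0% of all genes, and at annotated starts 2 had a peak in all 4. Ogg1, the glycosylase for oxidised guanine, had a strong peak in every list, at 5.87 in cKO KCl, 4.76 in cKO basal, 5.38 in WT KCl and 5.35 in WT basal. Apex1, the endonuclease that cuts at sites left without a base, had a weak peak in the basal lists, at 2.74 on 31 fragments in cKO basal and 2.63 on 28 in WT basal, and none in either KCl list. Osgep, whose start is nearer, shares that site. Neil1, a glycosylase for oxidised pyrimidines, had one in cKO lists only, at 2.56 in cKO KCl and 2.83 in cKO basal, and none in either WT list. Those peaks were different regions, 654 and 38 bp after the start. Lig1, the replicative ligase, had a gene-end peak of 2.85 on 26 fragments in cKO KCl and 2.62 on 27 in WT basal. At other annotated Lig1 starts a stronger peak was in every list, with a fold of 4.78 in cKO KCl, 3.25 in cKO basal, 4.96 in WT KCl and 4.14 in WT basal.

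Checkpoint members included the clamp made of Rad1, Rad9a and Hus1, its loader Rad17, and the kinases Atr and Chek1. Rad1 had one of the strongest peaks of the set, with a fold of 6.95 on 64 fragments in cKO KCl, 4.01 on 41 in cKO basal and 7.58 on 77 in WT basal, rank 153 of 34061. In WT KCl no peak was listed, and the nearest one to a gene end was 15235 bp away. The summit sat 19 to 29 bp before the start in the 3 lists that held it. The end of Brix1 lies within 1 kb of the same peak. Hus1 was listed everywhere at 3.10 in cKO KCl, 2.58 in cKO basal, 2.92 in WT KCl and 3.79 in WT basal. Rad9a had no gene-end peak in any list and no RefSeq promoter window here. Rad17 had 2.89 in cKO KCl, 3.57 in WT KCl and 3.50 in WT basal, with none in cKO basal, where the nearest to an end was 15821 bp away, and shares its site with Ak6 and Taf9. Atr had 4.19 in cKO KCl, 3.15 in cKO basal, 4.01 in WT KCl and 3.50 in WT basal. Chek1, the kinase that Atr activates, stayed between 2.82 and 3.36. The clamp's 3 subunits thus had 3, 0 and 4 lists with a gene-end peak.

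At gene ends, double-strand break signalling was led by Atm, the kinase activated by broken ends. Its peak had a fold of 7.25 in cKO KCl, 5.73 in cKO basal, 5.83 in WT KCl and 7.77 in WT basal. Atm held the top 2.43% of common regions in cKO KCl, 3.75% in cKO basal, 3.10% in WT KCl and 1.74% in WT basal. It faces the start of Npat, which lies nearer to the peak's middle in all 4 lists. Chek2, the kinase that Atm activates, had 5.96 in cKO KCl, 4.48 in cKO basal, 5.10 in WT KCl and 5.10 in WT basal. Nbn, a subunit of the complex that holds broken ends, had 5.24 in cKO KCl, 4.58 in cKO basal, 4.11 in WT KCl and 4.86 in WT basal. Rad50, another subunit of that complex, had no gene-end peak in any list. Trp53bp1, a chromatin reader at breaks, had gene-end peaks of 2.81 in cKO KCl and 2.57 in cKO basal that were different regions, -24036 bp and 76694 bp from its annotated start. At that start a peak was present throughout, with 4.36 in cKO KCl, 4.48 in cKO basal, 6.10 in WT KCl and 5.86 in WT basal.

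Of 6 homologous recombination and Fanconi members, 2 had a gene-end peak in all 4 lists, a share near the 29.0% of all genes. Brca1, a ubiquitin ligase that promotes strand exchange, had 5.56 in cKO KCl, 4.96 in cKO basal, 4.78 in WT KCl and 6.52 in WT basal, but the peak lay nearer the start of Nbr1 in all 4 lists. Palb2, the bridge between Brca1 and Brca2, had a fold of 5.77 on 53 fragments in cKO KCl, 4.87 on 44 in WT KCl and 4.08 on 41 in WT basal. No Palb2 peak was listed in cKO basal, where the nearest to a gene end was 5219 bp away, and Dctn5 shares the site. Brca2, a mediator of strand exchange, had a peak of 3.50 on 35 fragments in WT basal and none in any other list, where the nearest to an end was 24401 to 24433 bp away. Xrcc2, which also acts in strand exchange, was listed in WT only, at 2.65 in WT KCl and 3.11 in WT basal. Xrcc3, which acts in the same step, had 4.67 in cKO KCl, 4.06 in cKO basal, 3.05 in WT KCl and 4.98 in WT basal. Fancd2, the Fanconi protein that is ubiquitinated at crosslinks, had 3.63 in cKO basal and 2.82 in WT KCl and none in cKO KCl or WT basal. Its site lies at the start of Emc3.

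At gene ends, end joining held the member of highest fold in cKO KCl, cKO basal and WT basal. In WT KCl the highest gene-end fold was Atm's 5.83, below the 6.10 of the Trp53bp1 start peak. Xrcc4, the partner of the ligase that seals double-strand breaks, had a fold of 8.66 on 80 fragments in cKO KCl (rank 38 of 25690), 6.59 on 68 in cKO basal (rank 81 of 20484), 4.44 on 40 in WT KCl (rank 1513 of 20229) and 8.06 on 82 in WT basal (rank 85 of 34061). Among the common regions it held the top 0.528% in cKO KCl, 1.11% in cKO basal, 20.4% in WT KCl and 1.18% in WT basal. The WT KCl value stands apart from the other 3. Tmem167 starts beside it. Xrcc5, a subunit of the Ku ring that caps broken ends, had 4.06 in cKO KCl, 3.15 in cKO basal, 3.25 in WT KCl and 3.98 in WT basal. Xrcc6, the other Ku subunit, had no gene-end peak, but at its RefSeq transcript start had 3.66 in cKO KCl, 3.60 in cKO basal, 3.98 in WT KCl and 4.11 in WT basal. Lig4, the ligase of this route, had a gene-end peak of 2.77 in WT basal only. Its start peak, 1068 to 1084 bp from the annotated end and so just outside the 1 kb limit, had 3.24 in cKO KCl, 3.12 in cKO basal, 3.46 in WT KCl and 4.30 in WT basal. Just inside the limit was a Tdp1 peak of WT basal at 967 bp, with a fold of 2.88.

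Nucleotide excision held 8 members, of which 6 were listed throughout, against 29.0% of all genes. Rad23b, which stabilises the damage sensor Xpc, had 6.45 in cKO KCl, 4.84 in cKO basal, 5.71 in WT KCl and 5.86 in WT basal. Ercc4, a subunit of the nuclease that cuts on one side of the lesion, had 5.66 in cKO KCl, 4.68 in cKO basal, 5.31 in WT KCl and 5.83 in WT basal. Ercc5, the nuclease that cuts on the other side, had 6.52 on 60 fragments in cKO KCl, 3.15 on 32 in cKO basal, 5.09 on 46 in WT KCl and 6.51 on 66 in WT basal. Ercc5 held the top 5.71% of the common regions in cKO KCl, 67.8% in cKO basal, 8.91% in WT KCl and 5.77% in WT basal, the widest shift of the 23 members, with cKO basal apart. Ercc1, the partner of Ercc4, had a peak of 3.49 in cKO KCl and none at an end in the other lists. Xpa, the scaffold of the excision complex, had 3.04 in cKO KCl, 3.20 in WT KCl and 3.03 in WT basal, and none in cKO basal, where the nearest to an end was 21904 bp away. Xpc itself had 4.56 in cKO KCl, 3.76 in cKO basal, 3.44 in WT KCl and 3.16 in WT basal, at a site nearest to Lsm3. The helicases of the transcription factor that opens the lesion were listed throughout, Ercc2 between 2.79 and 3.23 and Ercc3 between 2.71 and 3.87.

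Mismatch repair members were listed in all 4 lists, as were 29.0% of all genes. Msh6, which recognises single mispairs, had 5.90 in cKO KCl, 3.67 in cKO basal, 3.74 in WT KCl and 4.12 in WT basal. Among the common regions Msh6 held the top 11.0% in cKO KCl, 43.8% in cKO basal, 45.6% in WT KCl and 45.8% in WT basal, with cKO KCl apart. Msh3, which recognises small loops, stayed between 3.29 and 3.65. Pms2, the nicking subunit that follows them, had 4.79 in cKO KCl, 3.17 in cKO basal, 4.06 in WT KCl and 4.03 in WT basal, next to Aimp2. Sesn2, a stress-induced regulator of growth signalling and a p53 target, had 4.02 in cKO KCl, 3.24 in cKO basal, 3.24 in WT KCl and 3.92 in WT basal. These folds belong to different regions. The summit lay at -36 bp in cKO KCl and -104 bp in WT KCl, and at 718 bp in cKO basal and 605 bp in WT basal, counted from the start. Both Sesn2 regions had a peak in all 4 lists, and only the stronger one of each list is given here.

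The comparisons ask how Brg1 loss and depolarisation each change open sites. Without KCl, 3 members had a gene-end peak in cKO and not in WT (Fancd2, Neil1 and Trp53bp1; 6.98%, against 4.25% of all genes), and 8 had one in WT and not in cKO (Brca2, Lig1, Lig4, Palb2, Parp2, Rad17, Xpa and Xrcc2; 18.6% against 12.0%). With KCl, 5 had one in cKO and not in WT (Ercc1, Lig1, Neil1, Rad1 and Trp53bp1; 11.6% against 10.1%), and 2 in WT and not in cKO (Fancd2 and Xrcc2; 4.65% against 4.7%). The WT basal list is the longest, and all genes lean the same way as the members in each comparison. Neil1, Trp53bp1 and Xrcc2 differed in the same direction between genotypes with and without KCl, while Fancd2 and Lig1 turned round. For Neil1 and Trp53bp1 the peaks behind this were different regions with and without KCl. At annotated transcript starts Lig1, Lig4 and Trp53bp1 had a peak in all 4 lists, so their differences lie at other sites. For Lig1 and Lig4 these are other annotated starts, and for Trp53bp1 the strongest gene-end peak lay upstream of the start in cKO KCl and at the far end of the gene in cKO basal.

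Within WT neurons, 1 member had a gene-end peak with KCl and not in basal (Fancd2; 2.33% against 4.72%), and 5 had one in basal and not with KCl (Apex1, Brca2, Lig1, Lig4 and Rad1; 11.6% against 11.5%). Within cKO neurons, 6 had one with KCl and not in basal (Ercc1, Lig1, Palb2, Parp2, Rad17 and Xpa; 14.0% against 11.0%), and 2 in basal and not with KCl (Apex1 and Fancd2; 4.65% against 4.59%). Palb2, Parp2, Rad17 and Xpa were the 4 members missing from cKO basal alone (9.3% of members, 3.68% of all genes). Palb2 and Parp2 are among the genes that stood out in the earlier reading. Shares that count them, here and between genotypes, are therefore a description. Of the 14 members with 1 to 3 lists, Parp2 and Rad1 had over 60 fragments in at least 1 list, and Lig1, Lig4, Apex1 and Xrcc2 none above 31 at their gene ends.

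Regions within 50 kb of the gene body were most numerous in WT basal, the longest list. Members summed to 144 regions in cKO KCl, 122 in cKO basal, 123 in WT KCl and 171 in WT basal. In cKO basal against WT basal, 8 members had more regions (18.6%, against 11.4% of all genes) and 25 fewer (58.1% against 57.3%). In cKO KCl against WT KCl, 23 had more (53.5% against 42.0%) and 9 fewer (20.9% against 20.2%). In WT KCl against WT basal, 7 had more (16.3% against 11.3%) and 27 fewer (62.8% against 57.2%). In cKO KCl against cKO basal, 20 had more (46.5% against 42.2%) and 11 fewer (25.6% against 20.1%). With each list held to its 20229 peaks of highest −log10 p, cKO basal against WT basal gave 18 members with more (41.9%, against 29.1% of all genes) and 13 with fewer (30.2% against 29.8%). WT KCl against WT basal then gave 17 with more (39.5% against 30.1%) and 14 with fewer (32.6% against 29.0%), so the lead of losses against WT basal turned round among the members, while all genes were near balance. For cKO KCl against WT KCl, 16 had more (37.2% against 29.4%) and 14 fewer (32.6% against 29.2%). For cKO KCl against cKO basal, 19 had more (44.2% against 30.0%) and 15 fewer (34.9% against 28.4%).

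**Figure D4:**
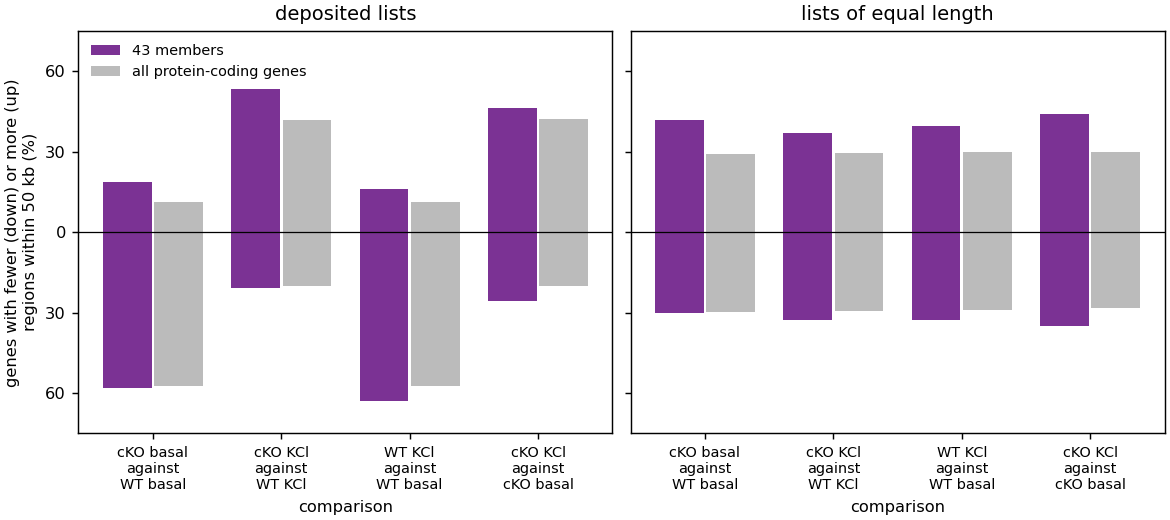
Percent of genes with more (up) or fewer (down) regions within 50 kb of the gene body in each comparison, for the 43 members and all protein-coding genes. With the deposited lists 58.1% of members had fewer regions in cKO basal than in WT basal, and with lists of 20229 peaks each 30.2% did.

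The members with the largest differences in regions, 5 per comparison, were these. Xrcc1 had 4 in cKO basal against 10 in WT basal, and 5 in WT KCl against the same 10. Ercc1 had 4 in cKO basal against 9 in WT basal, and 5 in WT KCl against that 9. Apex1 had 3 in cKO basal and 3 in WT KCl, against 7 in WT basal. Sesn2 had 3 and Xpa 1 in cKO basal, against 7 for Sesn2 and 5 for Xpa in WT basal. Xrcc2 had 1 and Brca1 2 in WT KCl, against 5 each in WT basal. With KCl, Pms2 had 4 in cKO against 1 in WT, Rad50 3 against 0, Tdp1 5 against 2, Xpc 6 against 3 and Ercc2 3 against 6. Within cKO neurons, Fancd2 had 7 with KCl against 3 in basal, Msh3 4 against 1, Sesn2 6 against 3, Ogg1 3 against 6 and Ercc3 1 against 4. Ercc1 and Ercc2 are neighbours that share 10 of these regions, so their counts are not separate.

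Sites away from gene ends were seldom common to the lists. Of 173 such regions near members, 5.2% were in all 4 lists, against 3.66% of all regions away from gene ends. Of 117 regions at gene ends near members 46.2% were, against 38.5% of all. The 9 regions behind the 5.2% included peaks at annotated starts of Aptx, Lig4 and Trp53bp1, which lie inside the gene models. Only gene-model ends were used to sort regions, for all genes alike, so the 5.2% is not a share of distal sites alone. Near Sesn2, the strongest site away from gene ends was at chromosome 4, 132515491 to 132515815, 5035 bp outside the gene. It had a fold of 3.84 in cKO KCl and 5.15 in WT basal and no peak in cKO basal or WT KCl. Near Rad23b, the strongest such site was at chromosome 4, 55415839 to 55416164, 23602 bp outside the gene, and in all 4 lists. Its fold was 4.70 in cKO KCl, 3.25 in cKO basal, 2.82 in WT KCl and 5.15 in WT basal. Exon and intron classes were not analysed here.

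Many gene-end peaks stood between neighbouring genes. Of 40 members with a gene-end peak, 19 (47.5%) had another protein-coding gene's end in or within 1 kb of their strongest peaks' span. The share was 24.3% of 12459 genes with such a peak. The span ran from the first to the last strongest peak over the lists. Where these were different regions, as for Trp53bp1, gene ends between them were counted too. The promoter windows of the 36 members in RefSeq, 41 in all, had a median GC content of 59.7% against 56.3% over 21263 windows, and a median CpG ratio, observed over expected, of 0.896 against 0.567. CCGGAAG (ETS) was in 31.7% of member windows against 11.6% of all, GGGCGG (Sp and Klf) in 61.0% against 46.2%, CCAAT (NF-Y) in 46.3% against 38.2%, CACGTG (E-box) in 14.6% against 7.84%, CGCATGCG (NRF1 core) in 7.32% against 2.52% and TGACGTCA (CRE) in 4.88% against 2.23%. TGANTCA (AP-1) and TCGCGAGA were in 0 member windows, against 6.99% and 1.41% of all, GCCATNTTG (YY1) in 2.44% against 2.85%, and the p53 half-site in 2.44% against 7.37%. Both strands were searched in windows of 250 bases before to 50 after the start, and no motif of the list contains another. In the printed sequences positions are counted from the start, with negative ones before it. The ETS match began at -94 in Rad1, at -124 in Palb2, and at -140 and -12 in Xrcc4, while Parp2 held an E-box match at -179. Counted from the other Rad1 start, at 10486038, ETS matches began at -114, which is the printed match, and at -25. A match is a description of letters, not a bound site.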

How the data were processed

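The files were 4 peak lists, 1 per condition. Per the submitters' processing notes, Bowtie2 and MACS2 were used with builds GRCm38 and mm10, names of 1 assembly; their versions and settings, and the way each list was made from a pair of libraries, were not given in the sources used here. In the deposited lists each peak has a score, a fold (ratio) over local background at the summit, −log10 p and −log10 q values, and the summit position. These are the authors' values and were used within a list only. Read depth is not in the files. Summit fragments and background were solved from fold and Poisson p, to a tolerance of 0.001 in −log10 p, for 100% of peaks, and the 5 mitochondrial peaks of each list were left out. Lists were merged into 62023 regions by an overlap of 1 bp.

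Gene ends came from the RefSeq table of GRCm38.p6, and starts, strand and sequences from its promoter table. Members, roles and lists were chosen with earlier results of these data known. Values are given in full for members whose status differed between lists, members with none, the 5 strongest in all lists by median rank, the 5 largest changes in regions per comparison, and the strongest distal sites of Sesn2 and Rad23b. The other folds were added after their values were seen. Some genes outside the set are not reported here. Python 3.11.15, pandas 2.3.3, numpy 2.4.6 and scipy 1.17.1 were used, and the scripts were tested on simulated lists with known overlaps. Alternatives were stricter q values, equal list length, other windows and overlaps, transcript starts alone, and other scales and rankings of the fold.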

Additional observations from a re-analysis of the deposited data

Results flagged for a closer look

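Lig1 and Fancd2 had a gene-end peak whose presence went opposite ways with KCl in the genotypes; the difference was not tested, since each condition has 1 list. The Lig1 gene-end peak had a fold of 2.85 in cKO KCl, with none in cKO basal, and 2.62 in WT basal, with none in WT KCl. The stronger peak at the other annotated Lig1 starts was in all 4 lists. The Fancd2 peak had a fold of 3.63 in cKO basal, with none in cKO KCl, and 2.82 in WT KCl, with none in WT basal. All 4 values rest on 25 to 37 fragments at the summit.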

How the results depend on the processing

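Of 130 alternative values of 25 results, 107 stayed within 1.5 times the reported count and 23 did not. The cause was not tested. No paired analysis was possible because each condition has 1 pooled list, and for the same reason no library could be left out. At equal list length, members listed at a gene end in cKO basal and not WT basal came to 5, in WT KCl and not WT basal to 2, and in WT basal and not WT KCl to 3. Members with more regions came to 18 in cKO basal against WT basal and 17 in WT KCl against WT basal, and those with fewer to 13 in cKO basal against WT basal, 14 in WT KCl against WT basal and 14 in cKO KCl against WT KCl. At a −log10 q of at least 3, 1 member was listed at a gene end in WT KCl and not cKO KCl, and 6 had fewer regions in cKO KCl than cKO basal. With a window of 2 kb, 3 were in WT basal and not WT KCl, and with 500 bp, 3 in cKO KCl and not WT KCl. Within 100 kb, 1 member had more regions in cKO basal than WT basal and 4 in WT KCl than WT basal; within 10 kb, 12 had more in cKO KCl than WT KCl. Members in the top 10% by fold came, among common regions, to 4 in cKO KCl, 2 in cKO basal, 6 in WT KCl and 4 in WT basal, and by summed fold among genes to 4 in cKO KCl, 3 in cKO basal, 2 in WT KCl and 7 in WT basal. Peaks near the lowest summits, of 20 to 22 fragments, are threshold calls, and with 1 pooled list per condition a missing peak cannot be told apart from one that was not detected.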

Other observations

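Of 82 other genes of the same pathways, 50 had a gene-end peak in all 4 lists, where 29.0% of all genes do, and 8 in none, where 43.1% of all genes fall. Per list, 63 had one in cKO KCl (45.2% of all genes do), 60 in cKO basal (38.8%), 65 in WT KCl (39.8%) and 63 in WT basal (46.5%). Bypass polymerases and direct reversal had 6 of 7 in all 4 lists, damage signalling 12 of 16, nucleotide excision 10 of 14, mismatch repair 4 of 6, recombination and Fanconi 12 of 20, end joining 2 of 5, and base excision with strand breaks 4 of 14. These counts stand beside the 29.0% of all genes, and the base excision count lay near that share. Clspn, an adaptor of Chek1 activation, had a fold of 2.96 in cKO basal, 2.92 in WT KCl and 3.59 in WT basal, and none in cKO KCl. Polh, a bypass polymerase, was also missing from cKO KCl alone, with 2.93 in cKO basal, 3.25 in WT KCl and 2.43 in WT basal. Exo1, an exonuclease, was missing from cKO basal alone, with 2.78 in cKO KCl, 3.57 in WT KCl and 2.62 in WT basal. Fanci, the partner of Fancd2, was missing from WT basal alone, with 3.64 in cKO KCl, 2.71 in cKO basal and 2.71 in WT KCl. Nthl1, a glycosylase, was missing from WT basal too, with 3.30 in cKO KCl, 2.92 in cKO basal and 2.47 in WT KCl.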
